A study of Mus musculus with 28 samples.

Results

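The T-box genes *Tbx1*, *Tbx2*, *Tbx3*, *Tbx4*, *Tbx5*, *Tbx15* and *Tbx18*, were followed through the sorted stroma and luminal epithelium of the mouse mammary gland. They are 7 of the 17 T-box family genes in a count table of 50600 genes, and they were chosen by their levels in stroma and epithelium in these libraries, so their levels by lineage are described here without a test. Each row was found by its Ensembl ID, and all 7 were found. The 28 libraries came from 7 adult C57BL/6 mice, females of 10 to 12 weeks by the study's methods for this line, that carried PdgfrαCre and the R26mTmG reporter. All 28 libraries therefore share both alleles, and no mouse without Cre is part of the comparison. Of these mice 4 were untreated and 3 received estrogen plus progesterone (E+P), which the methods describe as slow-release pellets under the skin. From each mouse GFP+ and tdTomato+ cells were sorted from the stromal gate (CD49f-EpCAM-) and the luminal gate (CD49f lo EpCAM+) after removal of CD31, Ter119 and CD45 cells, which gives 8 groups of 4 or 3 libraries. GFP marks cells in which the *Pdgfra*-driven Cre was ever active and the progeny of those cells, whether or not they still express *Pdgfra*, and tdTomato+ marks all other cells of the gate.

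T-box factors are transcription factors that bind DNA through a shared domain, the T-box, and act in the patterning of limbs, heart and glands. Within the family, *Tbx2*, *Tbx3*, *Tbx4* and *Tbx5* form a subfamily that arose by duplication of a linked gene pair, and *Tbx1*, *Tbx15* and *Tbx18* belong to another subfamily. *Tbx3* is required for the embryonic mammary bud, where it acts together with Fgf and Wnt signals, and *Tbx2* and *Tbx3* are known mainly as repressors. The linked pairs are still visible in the annotation: *Tbx3* (chr5:119670669-119684724, plus strand, ENSMUSG00000018604.18) and *Tbx5* (chr5:119832668-119885219, plus strand, ENSMUSG00000018263.11) lie 147943 bases apart, and *Tbx2* (chr11:85832551-85841948, plus strand, ENSMUSG00000000093.6) and *Tbx4* (chr11:85886422-85916097, plus strand, ENSMUSG00000000094.12) lie 44473 bases apart. The unlinked members are *Tbx1* (chr16:18580979-18590671, minus strand, ENSMUSG00000009097.9), *Tbx15* (chr3:99240381-99354259, plus strand, ENSMUSG00000027868.11) and *Tbx18* (chr9:87702800-87731260, minus strand, ENSMUSG00000032419.8). Coordinates are those of GENCODE M21 on GRCm38.

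The RefSeq promoter table (GRCm38.p6) held 3 of the members, *Tbx1*, *Tbx4* and *Tbx18*. Their 250 bases upstream of the RefSeq start are printed because these genes show 3 different patterns below, values that did not overlap between treatments in tdTomato+ stroma, a level near 0 in GFP+ stroma, and overlapping levels in the stromal subsets. The sequences run 5′ to 3′ on the gene's strand, from chr16:18590672-18590921 (minus), chr11:85896515-85896764 (plus) and chr9:87731261-87731510 (minus). Capitals mark matches on either strand to the T-box binding letters AGGTGTGA or the TATA box letters TATAAA.
Tbx1: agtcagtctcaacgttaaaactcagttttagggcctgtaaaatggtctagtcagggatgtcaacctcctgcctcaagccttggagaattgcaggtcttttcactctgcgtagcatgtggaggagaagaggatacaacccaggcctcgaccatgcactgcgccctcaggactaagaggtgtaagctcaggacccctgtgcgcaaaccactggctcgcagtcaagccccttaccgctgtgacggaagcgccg
Tbx4: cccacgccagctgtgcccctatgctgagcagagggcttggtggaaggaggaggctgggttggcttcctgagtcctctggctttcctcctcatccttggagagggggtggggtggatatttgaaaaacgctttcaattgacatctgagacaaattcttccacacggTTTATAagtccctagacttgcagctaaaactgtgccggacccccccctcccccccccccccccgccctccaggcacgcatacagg
Tbx18: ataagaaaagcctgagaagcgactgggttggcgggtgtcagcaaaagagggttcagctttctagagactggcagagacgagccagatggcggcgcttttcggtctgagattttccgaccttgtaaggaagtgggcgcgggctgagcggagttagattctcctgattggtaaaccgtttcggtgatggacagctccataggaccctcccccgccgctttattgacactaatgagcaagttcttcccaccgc
The upstream windows of *Tbx1* and *Tbx18* end at the GENCODE start of the gene, and that of *Tbx4* ends 10343 bases downstream of it, at a start inside the gene. GC content was 54.4% for *Tbx1*, 58.4% for *Tbx4* and 54.0% for *Tbx18*, against a median of 52.4% over 32851 promoter windows of the same length. The windows held 10, 6 and 15 CpG, against a median of 6. A TATA box match was present at 85 bases before the start of *Tbx4* and is found in 12.4% of all windows. AGGTGTGA was in none of the 3 windows and is found in 1.12% of all windows.

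Libraries held 8623383 to 24583803 counts, so that 3 counts, taken here as the floor of detection, correspond to 0.122 to 0.348 CPM, that is counts scaled to a common library total. This floor uses the raw library totals, and the CPM levels below were scaled by TMM. The gates were checked against marker genes. Summed *Krt8*, *Krt18*, *Krt19*, *Epcam* and *Cldn3* reached 3731 to 6810 CPM in luminal libraries and at most 404.9 CPM in stromal ones. Fibroblast genes summed to 29460 to 58980 CPM in GFP+ stroma and 1713 to 6026 CPM in tdTomato+ stroma. The tdTomato+ stroma held in addition skeletal muscle genes at 2256 to 19550 CPM, smooth muscle genes at 2102 to 6984 CPM, pericyte genes at 3536 to 6036 CPM and satellite cell genes at 179.6 to 300.3 CPM, where GFP+ stroma held at most 15.11, 74.01, 849.2 and 0.2373 CPM. In bulk libraries fewer cells of a type and less RNA per cell cannot be told apart.

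**Figure D1:**
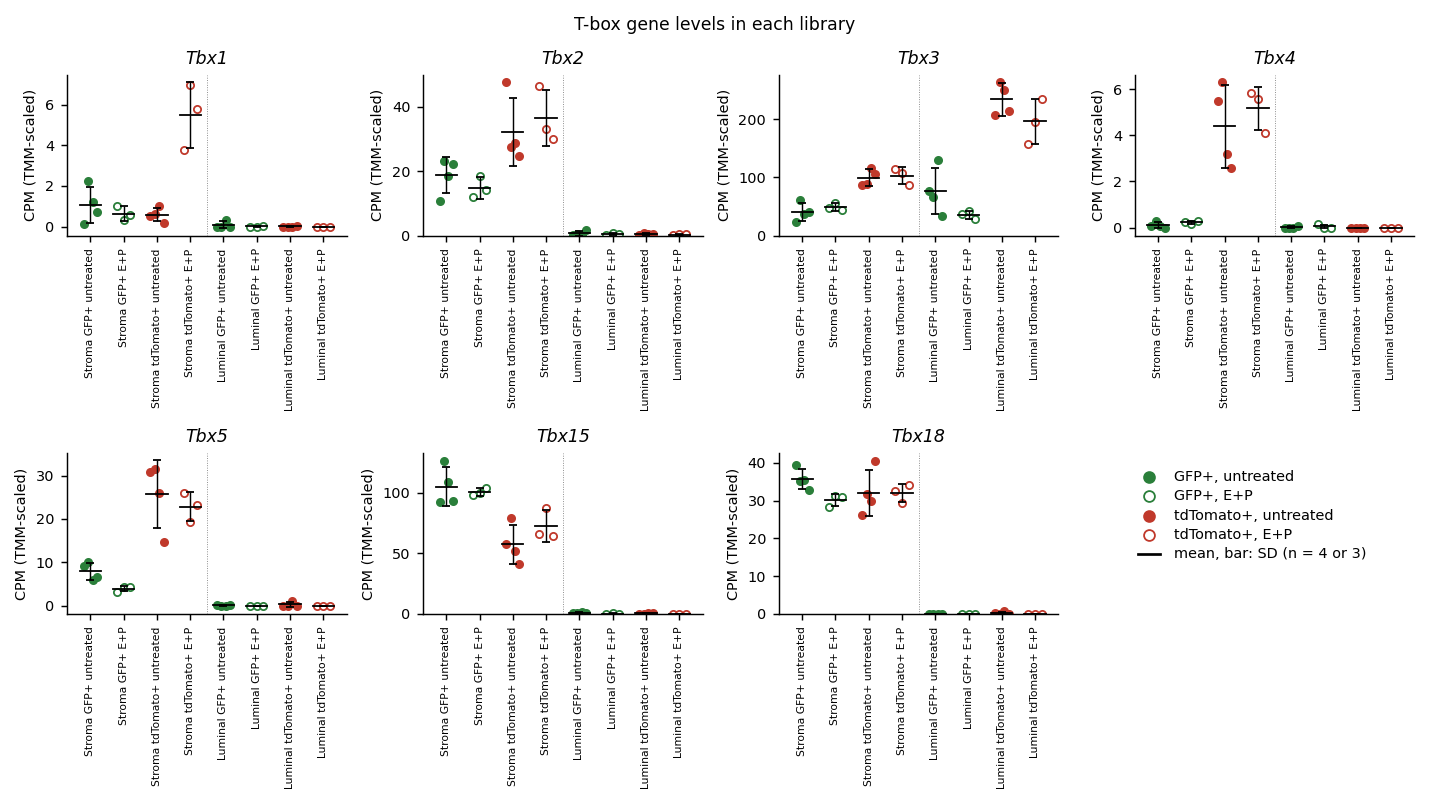
TMM-scaled CPM (y axis, linear, a separate range per gene) of the 7 T-box genes in each of 28 libraries, by group of lineage, subset and treatment (x axis). Points are libraries, horizontal lines are means and bars are SD (n = 4 untreated or 3 E+P). *Tbx3* is the member with levels above 29 CPM in every luminal library, and the other 6 stay at or below 1.69 CPM there.

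Among the members, *Tbx3* was the gene of both lineages and the others were genes of stroma. This does not hold for the whole T-box family. *Mga*, a family gene that is not a member, had a highest group mean of 324.3 CPM in stroma and 319.7 CPM in luminal cells. Over 14 luminal libraries *Tbx3* ranged from 29.0 to 264 CPM with a median of 143 CPM, and over 14 stromal libraries from 23.1 to 117 CPM with a median of 73.9 CPM. The ranges of the lineages overlapped. *Tbx2*, *Tbx15*, *Tbx5* and *Tbx18* did not overlap between lineages: the lowest stromal library held 10.9, 40.9, 3.16 and 26.3 CPM, and the highest luminal library 1.69, 1.27, 1.03 and 0.663 CPM. The ratio of the stromal to the luminal mean was 47.3 for *Tbx2*, 172 for *Tbx15*, 171 for *Tbx5* and 483 for *Tbx18*. The luminal means of *Tbx5* and *Tbx18* rested mostly on 1 library, tdTomato+ untreated replicate 3, which held 14 of the 17 luminal *Tbx5* counts and 9 of the 14 luminal *Tbx18* counts. In an alternative chosen after seeing the data, without that library, the ratios were 884 for *Tbx5* and 1490 for *Tbx18*, from 3 and 5 luminal counts, and 48.2 and 191 for *Tbx2* and *Tbx15*. The same library held skeletal muscle genes at 42.35 CPM and satellite cell genes at 2.946 CPM, against at most 30.68 and 1.127 CPM in the other luminal libraries, and their part in its counts was not tested. *Tbx1* and *Tbx4* were low everywhere, with 8 and 3 counts over all luminal libraries and 440 and 531 over all stromal ones.

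Per kilobase of exon, which allows levels of different genes to be compared, the members summed to 45.8 to 59.8 CPM per kb in the means of the 4 stromal groups, to 29.7 and 35.7 CPM per kb in E+P-treated and untreated tdTomato+ luminal cells, and to 5.69 and 12 CPM per kb in the corresponding GFP+ luminal cells. In luminal cells *Tbx3* made up 94.8% to 99.6% of this sum in the group means. In GFP+ stroma *Tbx15* held the highest share, 57.3% ± 2.5 (SD, n = 4) untreated and 58.7% ± 2.7 (SD, n = 3) with E+P, and *Tbx3* held 12.3% ± 3.03 and 16.1% ± 1.8. In untreated tdTomato+ stroma *Tbx3* (28.7% ± 6.1, SD, n = 4) and *Tbx15* (28.6% ± 5.61, SD, n = 4) had shares within their spread, followed by *Tbx2* (16.7% ± 4.77), *Tbx18* (13.1% ± 3.79) and *Tbx5* (10.2% ± 2.37). With E+P the tdTomato+ stroma held *Tbx15* at 32.5% ± 4.69 and *Tbx3* at 25.9% ± 1.49 (SD, n = 3).

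**Figure D2:**
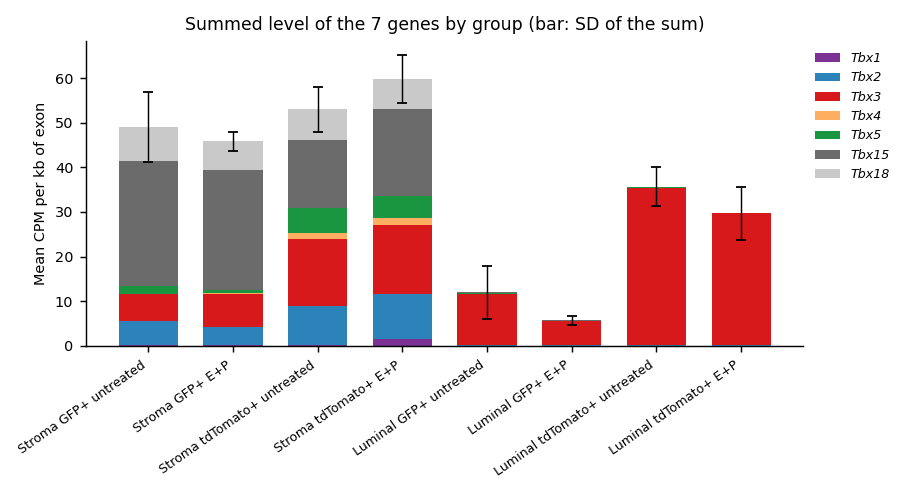
Mean level per kilobase of exon (y axis, CPM per kb) of the 7 genes stacked for each group of lineage, subset and treatment (x axis), with the SD of the summed level as a bar. Luminal columns consist almost wholly of *Tbx3*, 5.69 to 35.7 CPM per kb in sum, and stromal columns of 45.8 to 59.8 CPM per kb are divided among *Tbx15*, *Tbx3*, *Tbx2*, *Tbx18* and *Tbx5*.

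The comparison of GFP+ with tdTomato+ stroma asks whether cells of the *Pdgfra* lineage differ in T-box expression from the other stromal cells of the same mice. Of the 7 members, all tested, 4 were lower in GFP+ stroma (*Tbx2*, *Tbx3*, *Tbx4* and *Tbx5*), 1 was higher (*Tbx15*), and *Tbx1* and *Tbx18* did not pass the threshold of an adjusted p under 0.01 (edgeR quasi-likelihood F-test, Benjamini-Hochberg over all genes tested). Among all 17783 genes tested 42% passed, 21.3% lower and 20.6% higher in GFP+ stroma, and the 5 of 7 members are to be read against that background. The 4 lower genes are the *Tbx2* to *Tbx5* subfamily, that is both linked pairs.

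*Tbx5*, known for its part in forelimb and heart formation, had 9.10, 9.96, 5.87 and 6.58 CPM in the untreated GFP+ stromal libraries of replicates 1 to 4 and 30.8, 31.6, 26.0 and 14.7 CPM in the tdTomato+ libraries of the same mice. With E+P the values were 3.16, 4.19 and 4.19 CPM in GFP+ and 26.0, 19.4 and 23.2 CPM in tdTomato+ stroma. Every tdTomato+ library lay above every GFP+ library. The level fell by 2.18 on the log2 scale (SE 0.193, 4.53-fold, adjusted p = 4.34e-08 by edgeR) and was lower in 7 of 7 mice.

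*Tbx4*, which acts in hindlimb and lung, was close to the floor in GFP+ stroma at 0.0728, 0.300, 0.0599 and 0 CPM untreated and 0.237, 0.157 and 0.299 CPM with E+P, 18 counts in all. TdTomato+ stroma held 5.47, 6.31, 3.18 and 2.56 CPM untreated and 5.81, 5.58 and 4.08 CPM with E+P. The 2 subsets did not overlap. The log2 difference was -4.87 (SE 0.458, adjusted p = 9.38e-08 by edgeR), lower in GFP+ in 7 of 7 mice.

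*Tbx3* had 23.1, 61.4, 37.8 and 41.4 CPM in untreated GFP+ stroma and 86.5, 89.2, 117 and 105 CPM in untreated tdTomato+ stroma. With E+P it had 47.1, 56.5 and 43.3 CPM in GFP+ and 114, 107 and 87.0 CPM in tdTomato+ stroma. No GFP+ library reached the lowest tdTomato+ library. The level fell by 1.22 on the log2 scale (SE 0.167, 2.33-fold, adjusted p = 1.14e-05 by edgeR) in 7 of 7 mice. Its close relative *Tbx2* ranged from 10.9 to 23.3 CPM in GFP+ and from 24.8 to 47.7 CPM in tdTomato+ stroma, so that these ranges too were separate. The *Tbx2* difference was -1.08 on the log2 scale (SE 0.194, 2.12-fold, adjusted p = 0.000142 by edgeR), again with 7 of 7 mice lower in GFP+.

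*Tbx15*, which is known from skeletal patterning, muscle fibres and adipose depots, ran the other way. GFP+ stroma held 92.5, 127, 109 and 92.9 CPM untreated and 98.2, 99.7 and 104 CPM with E+P, and tdTomato+ stroma 57.5, 79.1, 52.1 and 40.9 CPM untreated and 65.9, 87.8 and 64.6 CPM with E+P. All GFP+ libraries lay above all tdTomato+ libraries. The difference was smaller than for the genes above, 0.63 on the log2 scale (SE 0.13, 1.55-fold, adjusted p = 0.00054 by edgeR), in 7 of 7 mice.

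*Tbx18*, a gene of pericytes, smooth muscle and their embryonic precursors, had nearly the same level in both subsets. Its 14 stromal libraries ran from 26.3 to 40.6 CPM, with group means of 35.7 ± 2.68 and 32.1 ± 6.10 CPM (SD, n = 4) in untreated GFP+ and tdTomato+ stroma and 30.2 ± 1.54 and 32.01 ± 2.37 CPM (SD, n = 3) with E+P. The log2 difference was -0.01 (SE 0.11, adjusted p = 0.96 by edgeR) and GFP+ was higher in 4 of 7 mice. Pericyte marker genes differed between these libraries, at most 849.2 CPM in GFP+ and at least 3536 CPM in tdTomato+ stroma. *Tbx1* averaged 0.853 CPM in GFP+ and 3.04 CPM in tdTomato+ stroma, a log2 difference of -1.19 (SE 0.503, adjusted p = 0.0549 by edgeR) that was present in 4 of 7 mice only. The direction of the group means differed by treatment. Untreated GFP+ and tdTomato+ stroma averaged 1.08 and 0.585 CPM, and with E+P they averaged 0.630 and 5.50 CPM.

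**Figure D3:**
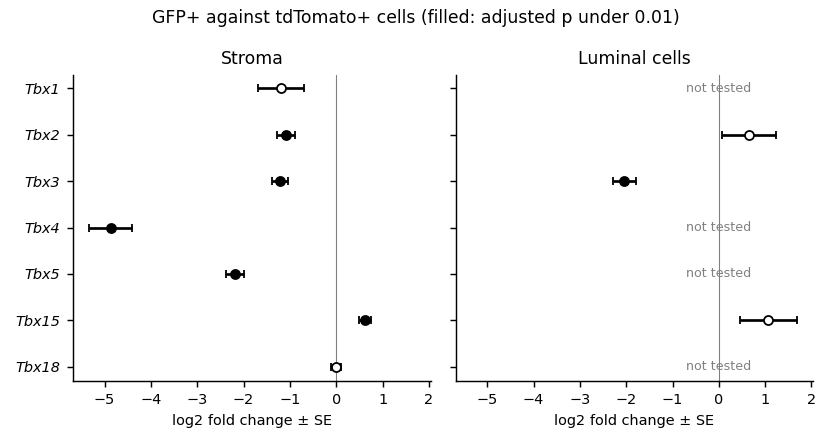
Log2 fold change of GFP+ over tdTomato+ cells (x axis) with SE for each of the 7 genes (y axis), in stroma and in luminal cells, averaged over untreated and E+P-treated mice. Filled points have an adjusted p under 0.01, 5 genes in stroma and *Tbx3* in luminal cells, and 4 genes were too low to be tested in luminal cells.

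The muscle and pericyte genes of tdTomato+ stroma moved with these differences, and their part in them was not tested. Across the 14 stromal libraries, which share the split into subsets, the genes with the pattern most like that of *Tbx4* were *Des* (Pearson r = 0.992 of log2 CPM), *Mrvi1* (0.988) and *Myo18b* (0.987), of which *Des*, the muscle intermediate filament desmin, is a smooth muscle marker in the list used here. For *Tbx5* they were *Sytl2* (0.984), *Deptor* (0.98) and *Atp2a3* (0.976), for *Tbx2* *Gm26917* (0.934), *Cnnm2* (0.934) and *Eif1ax* (0.927), and for *Tbx15* *Ak3* (0.949), *Isoc1* (0.947) and *Nek9* (0.946). *Tbx18* and *Tbx1* had the weaker best matches, *Wdr12* (0.859), *Dnah17* (0.848) and *A930037H05Rik* (0.819) for the former and *Pcx* (0.924), *Prcc* (0.904) and *Cldn12* (0.903) for the latter, each over 14 libraries and 16367 genes. Between the members themselves r over the same libraries was 0.744 to 0.894 within *Tbx2*, *Tbx3*, *Tbx4* and *Tbx5*, and -0.547 to -0.687 between each of these and *Tbx15*.

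Among the members only *Tbx2*, *Tbx3* and *Tbx15* had enough counts to be tested in luminal cells, and *Tbx3* passed. Among all 16538 genes tested in luminal cells 34.7% passed. GFP+ luminal cells held *Tbx3* at 76.3, 65.8, 129 and 33.6 CPM untreated and at 36.6, 42.3 and 29.0 CPM with E+P. TdTomato+ luminal cells of the same mice held 207, 264, 251 and 214 CPM untreated and 157, 195 and 235 CPM with E+P. The highest GFP+ library, untreated replicate 3, lay below the lowest tdTomato+ library, and *Tbx3* was lower in GFP+ in 7 of 7 mice, by 2.04 on the log2 scale (SE 0.242, 4.11-fold, adjusted p = 2.98e-05 by edgeR). *Tbx2* averaged 0.649 and 0.409 CPM in GFP+ and tdTomato+ luminal cells (adjusted p = 0.387 by edgeR) and *Tbx15* 0.580 and 0.321 CPM (adjusted p = 0.166 by edgeR), levels at which a difference was not detectable at this depth.

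Ordered over the 8 groups, *Tbx3* was highest in tdTomato+ luminal cells (234 ± 27.9 CPM untreated, SD, n = 4, and 196 ± 39.2 CPM with E+P, SD, n = 3), followed by tdTomato+ stroma (103 ± 14.2 CPM with E+P and 99.5 ± 14.3 CPM untreated), untreated GFP+ luminal cells (76.2 ± 39.7 CPM), GFP+ stroma (48.9 ± 6.79 CPM with E+P and 40.9 ± 15.8 CPM untreated) and E+P-treated GFP+ luminal cells (36.0 ± 6.67 CPM). Neighbours in this order lay within each other's spread except for the step from tdTomato+ luminal cells to tdTomato+ stroma. The GFP+ to tdTomato+ difference of *Tbx3* was larger in luminal cells than in stroma by 0.81 on the log2 scale (SE 0.302), which did not pass (adjusted p = 0.033 by edgeR, where 33.2% of 19569 genes passed). Without untreated replicate 3 it passed, at -1.075 with an adjusted p of 0.00489 (edgeR). Of the 3 members tested in both lineages edgeR called 0 in that comparison, with 2 at an unadjusted p under 0.05, where 50.1% of all genes were. DESeq2 called 1 (*Tbx2*, 1.76, adjusted p = 0.00173) and limma-voom called 0. For *Tbx4* the comparison cannot be made, since luminal cells held 3 of its counts in all.

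The summed level of genes of hormone-sensing cells, the luminal cells that carry the estrogen and progesterone receptors, moved with luminal *Tbx3*. The sum of *Esr1*, *Pgr*, *Prlr*, *Foxa1*, *Cited1* and *Prom1* was 289.8 to 1852 CPM in untreated and 163.3 to 268.8 CPM in E+P-treated GFP+ luminal libraries, and 3968 to 5625 CPM and 1782 to 3016 CPM in tdTomato+ ones. Genes of luminal progenitors stood the other way, at 1420 to 3228 CPM in GFP+ and 125 to 922.7 CPM in tdTomato+ luminal libraries. As a description over the 7 libraries of a subset, which share their treatment groups, Pearson r between log2 *Tbx3* and the log2 sum was 0.947 (Spearman rho 0.857) in GFP+ and 0.88 (rho 0.857) in tdTomato+ cells. Without the 2 libraries farthest from the median of the sum it was 0.805 and 0.41, so that in tdTomato+ cells the relation rests on those libraries. For the single genes r ran from 0.759 to 0.946 in GFP+ and from 0.277 (*Pgr*) to 0.854 (*Prlr*) in tdTomato+ cells. Without the 2 libraries farthest from each gene's median it ran from 0.692 to 0.922 and from -0.564 (*Cited1*) to 0.571 (*Pgr*). The part of hormone-sensing cells in the *Tbx3* difference was not tested. The 3 genes most like *Tbx3* over 14 luminal libraries and 15290 genes were *Creb3l2* (r = 0.985), *Mtmr6* (0.982) and *Tspan13* (0.982).

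**Figure D4:**
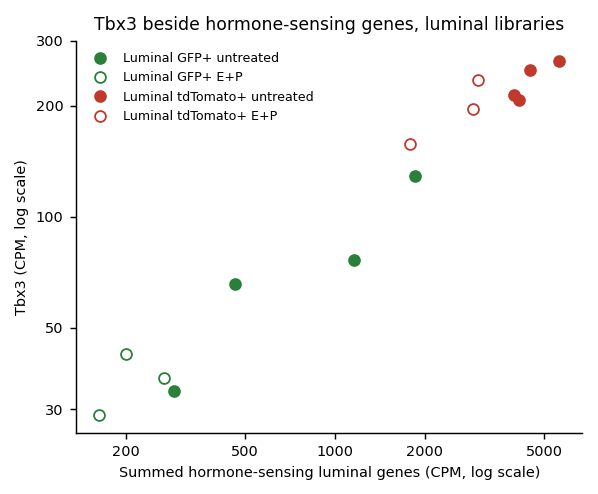
*Tbx3* level (y axis, CPM, log scale) against the summed CPM of 6 hormone-sensing luminal genes (x axis, log scale) in 14 luminal libraries, with filled points for untreated and open points for E+P-treated mice. GFP+ libraries lie at 29.0 to 129 CPM of *Tbx3* and 163.3 to 1852 CPM of the sum, and tdTomato+ libraries at 157 to 264 CPM and 1782 to 5625 CPM.

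The E+P comparisons ask whether hormone treatment changed T-box expression within a sorted subset, between different mice. No member passed the threshold in any of the 4 subsets with edgeR, against 0.231% of all genes in GFP+ stroma, 0.124% in tdTomato+ stroma, 5.96% in GFP+ luminal cells and 14.1% in tdTomato+ luminal cells. At an unadjusted p under 0.05 there was 1 member in each subset with edgeR, of 7 tested in stroma and 3 in luminal cells. Over all genes tested the shares at that p were 8.04% in GFP+ and 15.6% in tdTomato+ stroma. In luminal cells they were 29.9% in GFP+ and 39% in tdTomato+. DESeq2 called 1 member in tdTomato+ stroma and 1 in GFP+ luminal cells, and limma-voom called 0 in each subset.

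The gene behind the DESeq2 call in tdTomato+ stroma was *Tbx1*, known for its part in pharyngeal development. It had 0.538, 0.614, 0.999 and 0.190 CPM in untreated tdTomato+ stroma and 3.76, 6.97 and 5.78 CPM with E+P. All 3 E+P libraries lay above all 4 untreated ones, from 31 and 319 counts in all. The log2 fold change was 3.17 (SE 0.701, adjusted p = 0.0443 by edgeR), and over the alternatives it ran from 2.89 to 3.58 with adjusted p from 0.000198 to 0.204. An exact permutation test of this gene alone gave p = 0.0286, the smallest that 3 against 4 mice allow. It uses the same separated values and adds no support of its own. The same permutation test gave p = 0.0286 for *Tbx5* and 0.0571 for *Tbx18* in GFP+ stroma, and 0.114 for *Tbx3* in GFP+ luminal cells. In GFP+ stroma *Tbx1* had 0.146, 2.25, 1.198 and 0.711 CPM untreated and 1.03, 0.314 and 0.548 CPM with E+P. The difference between the subsets in their response was -3.99 on the log2 scale (SE 1.01) and did not pass (adjusted p = 0.138 by edgeR, where 0.045% of genes passed). Between the same tdTomato+ libraries skeletal muscle genes ran from 2256 to 11250 CPM untreated and from 5609 to 19550 CPM with E+P, and luminal keratin and adhesion genes from 17.5 to 404.9 CPM and from 2.68 to 32.7 CPM. Their part in the *Tbx1* difference was not tested.

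*Tbx5* in GFP+ stroma was lower in all 3 E+P libraries than in all 4 untreated ones, at 3.16 to 4.19 against 5.87 to 9.96 CPM. The log2 fold change was -1.05 (SE 0.277, adjusted p = 0.111 by edgeR), lower in 12 of 12 pairings of an E+P with an untreated mouse. Over the alternatives the adjusted p ran from 0.0117 to 0.585. In tdTomato+ stroma its log2 fold change was -0.19 (SE 0.255, adjusted p = 0.766 by edgeR), with overlapping values, and the responses of the subsets differed by -0.86 (SE 0.373, adjusted p = 0.423 by edgeR). *Tbx18* in GFP+ stroma also had E+P values below the untreated ones, 28.4 to 31.2 against 32.9 to 39.4 CPM, with a log2 fold change of -0.27 (SE 0.156, adjusted p = 0.757 by edgeR).

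*Tbx3* in GFP+ luminal cells averaged 76.2 CPM untreated and 36.0 CPM with E+P. The untreated values of 33.6 to 129 CPM overlapped the E+P values of 29.0 to 42.3 CPM through untreated replicate 4, and 10 of 12 pairings of an E+P with an untreated mouse were lower. The log2 fold change was -1.11 (SE 0.341, adjusted p = 0.0464 by edgeR). It passed with DESeq2 (-1.10, adjusted p = 0.00598) and without untreated replicate 4 (-1.36, adjusted p = 0.00519 by edgeR). Without untreated replicate 3, the highest of the untreated libraries, it was -0.72 with an adjusted p of 0.109 (edgeR), and without E+P replicate 3 it was -0.94 with an adjusted p of 0.179 (edgeR), the highest of the alternatives. The sum of hormone-sensing genes was 940.7 ± 713.7 CPM (SD, n = 4) in the same untreated libraries and 210.8 ± 53.5 CPM (SD, n = 3) with E+P, and it was 289.8 CPM in untreated replicate 4, the lowest of the untreated libraries. Its part was not tested. In tdTomato+ luminal cells *Tbx3* changed by -0.25 on the log2 scale (SE 0.329, adjusted p = 0.617 by edgeR), and the luminal subsets' responses differed by -0.86 (SE 0.467, adjusted p = 0.308 by edgeR, where 2.27% of genes passed).

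**Figure D5:**
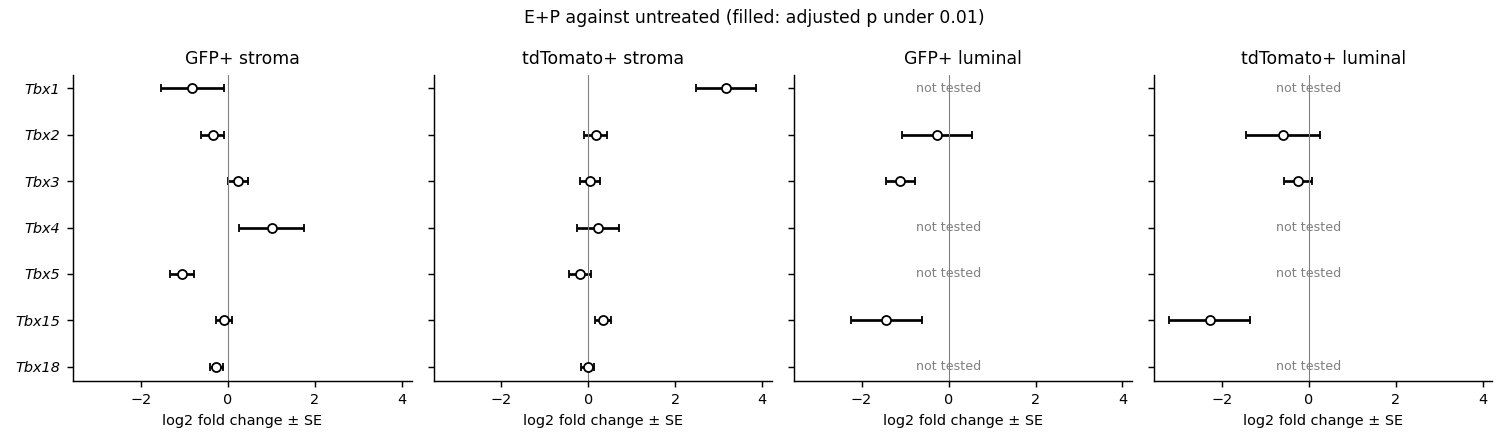
Log2 fold change of E+P over untreated (x axis) with SE for each of the 7 genes (y axis) in the 4 sorted subsets. All points are open, since no gene had an adjusted p under 0.01, and the points farthest from 0 among the stromal panels are *Tbx1* in tdTomato+ stroma at 3.17 and *Tbx5* in GFP+ stroma at -1.05.

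The other T-box family genes were read in the same comparisons. Of the 17 family genes 11 could be tested in stroma and 5 in luminal cells, and beside the members *Mga*, whose protein joins a T-box to a Max-binding domain, was the single further gene past the threshold between the stromal subsets, 0.37 higher in GFP+ on the log2 scale. The family's median log2 difference, members included, was -1.19 in stroma against -0.01 for all genes tested, and 0.14 against 0.00 in luminal cells. Members make up 7 of the 11 genes in the stromal median and 3 of the 5 in the luminal one. These medians are therefore mostly a second reading of the members.

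Proteins that bind T-box factors differed in both directions between the stromal subsets, with 9 of 14 tested, 2 higher and 6 lower in GFP+ (median -0.54, all genes -0.01), where 20.6% of all genes were higher and 21.3% lower. *Gata6* (1.87) and *Wwtr1* (0.29), a transcription factor and a coactivator of the Hippo pathway, were higher. The chromatin remodeller *Chd7* (-5.94), the muscle transcription factor *Mef2c* (-3.06) and the corepressor *Tle1* (-0.74) were lower. In luminal cells 8 were tested, with *Wwtr1* (1.29) and *Tle1* (0.81) higher and *Pdlim7* (-1.36), *Tle3* (-0.40) and *Yap1* (-0.20) lower in GFP+ (median 0.20, all genes 0.00).

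Signals that act with T-box genes in the mammary bud and the limb were tested for 14 genes in stroma, of which 7 were higher and 1 was lower in GFP+ (median 1.05, all genes -0.01), beside 20.6% and 21.3% of all genes. The ligands *Wnt10b* (5.04), *Fgf10* (4.71) and *Wnt5a* (2.99) led them, and *Bmp4* (-0.91) was the lower one. Of 7 tested in luminal cells 5 were lower and 0 higher in GFP+, where 34.7% of all genes passed and 19% were lower, led by the Fgf receptor *Fgfr2* (-3.32), the homeobox gene *Msx2* (-2.71) and *Wnt5a* (-2.54) (median -0.73, all genes 0.00). With E+P, *Fgfr2* (-3.94) and *Fgfr1* (-1.80) fell and *Gli3* (1.25) rose in GFP+ luminal cells, 3 of 7 tested, where 5.96% of all genes passed. In tdTomato+ luminal cells *Fgfr1* (-1.46) fell and *Pthlh* (3.17) rose, 2 of 7 tested, where 14.1% of all genes passed. *Fgfr2* in tdTomato+ (-2.14) and *Pthlh* in GFP+ luminal cells (2.47) moved the same way without passing (adjusted p = 0.0184 and 0.0344 by edgeR). For the difference in response between the luminal subsets 0 of the 7 passed.

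Described targets of T-box factors differed in both directions between the stromal subsets, where 20.6% of all genes were higher and 21.3% lower in GFP+. The gap junction gene *Gja1* (4.09), *Fgf10* (4.71, also on the signal list) and *Ndrg1* (0.73) were higher in GFP+ stroma, and the cell cycle inhibitor *Cdkn1a* (-2.02), which *Tbx2* and *Tbx3* are known to repress, was lower. *Cdkn1a* was also lower in GFP+ luminal cells (-1.34), the only 1 of 4 targets tested to pass there, where 34.7% of all genes passed. Both *Cdkn1a* and *Tbx3* were thus lower in GFP+ cells of each lineage. With E+P, *Gja1* (2.53) and *Cdkn1a* (1.22) rose in tdTomato+ luminal cells, and the *Gja1* response differed between the luminal subsets by -2.003 (adjusted p = 0.00809 by edgeR). Of 54 genes on the 4 lists 39 could be tested with E+P in stroma. Of these, edgeR called 0 in either subset, where 0.231% of all genes passed in GFP+ and 0.124% in tdTomato+ stroma. At an unadjusted p under 0.05 there were 6 in GFP+ and 10 in tdTomato+ stroma, beside 8.04% and 15.6% of all genes. DESeq2 called 1 in GFP+ stroma (*Pdlim7*) and 6 in tdTomato+ stroma (*Tbx1*, *Yap1*, *Fgfr2*, *Wnt10b*, *Wnt5a* and *Gata3*), and limma-voom called 0 in both.

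Genes that overlap or neighbour the members on the chromosome were read in the same comparisons. *Tbx3os1*, an antisense RNA that overlaps the start of *Tbx3*, was lower in GFP+ cells of stroma (-1.99, SE 0.325, adjusted p = 5.43e-05 by edgeR) and of the luminal gate (-2.01, SE 0.39, adjusted p = 0.000724 by edgeR). *Tbx3os2*, a noncoding RNA 371 bases past the end of *Tbx3*, was present at 6.68 and 5.44 CPM in untreated and E+P-treated tdTomato+ luminal cells and at 1.49 and 0.343 CPM in GFP+ luminal cells, a log2 difference of -3.06 (SE 0.522, adjusted p = 0.000326 by edgeR). In the stromal groups it reached at most 0.417 CPM on average, 30 counts in 14 libraries, although *Tbx3* itself stood at 40.9 to 103 CPM there. *Gm43050*, a noncoding RNA 748 bases before *Tbx5* on the other strand, was higher in GFP+ stroma (3.67, SE 0.882, adjusted p = 0.00198 by edgeR), opposite to *Tbx5*, at levels of 1.38 and 1.12 CPM in untreated and E+P-treated GFP+ stroma. Of the nearest coding genes on either side that are not members, 10 were tested in stroma and 4 passed, where 42% of all genes passed. *Nt5e* (3.85) and *Cep162* (0.56) beside *Tbx18* and *Gp1bb* (3.16) beside *Tbx1* were higher in GFP+ stroma on the log2 scale, and *Bcas3* (-0.62) beside *Tbx2* was lower. In luminal cells 8 were tested and 5 passed, where 34.7% of all genes passed. These were *Brip1* (1.63) beside *Tbx4*, *Gnb1l* (1.43) beside *Tbx1*, *Cep162* (0.38) beside *Tbx18* and *Rbm19* (0.36) beside *Tbx5*, all higher in GFP+, and *Nt5e* (-1.14), which was lower. Reads of 75 bases could be shared between *Tbx3* and *Tbx3os1* over 0.628% of the positions in *Tbx3* transcripts, and between *Tbx18* and the overlapping *D030062O11Rik* over 16.9% of those in *Tbx18*, which held 219 counts in all. The strand used in counting is not given in the sources used here, so that reads of these overlapping pairs may be mixed. The other 5 members shared no such stretch with another gene.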

How the data were processed

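The authors sequenced total RNA of FACS-sorted cells with a stranded pico-input kit (paired-end, 75 bases), aligned the reads to GRCm38.p5 with STAR 2.5.2a, and deposited raw gene counts that were not normalized and carry no molecular identifiers. The GENCODE release and the strand column they counted are not given in the sources used here. RNA quality varied widely between samples per the study's methods, and no value per library is given.

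Groups came from the sample titles. Of 50600 gene IDs, 50376 were found in GENCODE M21, 45737 with the same version, and no pair of libraries was identical. Counts were scaled by TMM and filtered with filterByExpr. Group means were compared in edgeR 4.0.16 (R 4.3.3) by its robust quasi-likelihood F-test, two-sided, over 14 libraries of a lineage in 4 groups (all 28 libraries for the lineage-by-subset difference), with Benjamini-Hochberg adjustment over all genes tested and a threshold of 0.01. The standard error of a log2 fold change is its size divided by the square root of F. Log2 CPM used a prior count of 2. Exact permutation tests of single genes used log2(CPM + 0.5). The fitting functions were tested on simulated counts with known changes. Alternatives were DESeq2 1.42.0 (its size factors and its Wald test), limma 3.58.1 with voom, library size alone, no low-count filter, a threshold of 0.05, only the 2 groups compared, the mouse as a block, and each mouse left out. The floor of detection covers counting error only, while SD and SE include the spread between libraries of a group.

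Libraries with the same number and treatment came from the same mouse per the titles. Deviations from group means correlated at 0.062 on average between the stromal and 0.177 between the luminal libraries of a mouse, and at -0.024 and -0.068 between mice. Untreated and E+P mice are different animals and were not paired.

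The members, the gene lists and the tests were chosen with earlier results of these data known. Named were all members, other T-box genes past the threshold, up to 3 genes per direction and comparison from each of the other lists with the largest log2 fold change among those past the threshold at a group mean of at least 1 CPM, the 3 genes most like each member by Pearson r of log2 CPM, and genes that overlap or neighbour a member. A gene of the target list is not reported here. Genes that only DESeq2 called were named after their values were seen. Sequences are from RefSeq (GRCm38.p6), the promoter nearest the GENCODE start where a gene had several, and no genome was used.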

Additional observations from a re-analysis of the deposited data

Results flagged for a closer look

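In luminal cells a single untreated library of a group held all counts of a stromal T-box gene in 4 cases, with the other 3 libraries at 0. These were *Tbx1* at 0.3468 CPM in GFP+ luminal cells and 0.04076 CPM in tdTomato+ luminal cells, *Tbx4* at 0.08051 CPM in GFP+ luminal cells, and *Tbx5* at 1.031 CPM in tdTomato+ luminal cells. Of 27 groups of 4 libraries examined, chance alone sets apart about 1 in 20, and counts near 0 do so more readily. The *Tbx5* library is tdTomato+ untreated replicate 3.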

How the results depend on the processing

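Over 47 member results and 606 values under alternatives, 575 kept direction and side of the threshold, 20 changed sign or came to 0, 2 fell below the threshold and 9 rose past it. The sign changes were in 8 results that did not pass as reported and did not pass with the other sign. For *Tbx18* between the stromal subsets the log2 difference was 0.009 with limma-voom, 0.019 with no low-count filter, 0 with the replicate block, and -0.069 to 0.076 with mice left out. For *Tbx3* with E+P in tdTomato+ stroma it was -0.017 with library size alone and -0.047 to 0.122 with mice left out. For *Tbx2* with E+P in GFP+ luminal cells it was 0.114 with limma-voom and -0.674 to 0.628 with mice left out. With mice left out it also ran from -0.153 to 0.003 for *Tbx15* with E+P in GFP+ stroma, from -0.035 to 0.422 for *Tbx2* and from -0.101 to 0.114 for *Tbx18* with E+P in tdTomato+ stroma, from -0.117 to 1.287 for the luminal subset-by-E+P difference of *Tbx2*, and from -0.005 to 0.888 for the lineage-by-subset difference of *Tbx15*. The cause was not tested. The 5 members called between the stromal subsets and the 1 between the luminal subsets stayed at 5 and 1 in every alternative run. With E+P in tdTomato+ stroma 1 member passed in place of 0 at a threshold of 0.05, with the DESeq2 Wald test and with no low-count filter (*Tbx1* each time). With E+P in GFP+ luminal cells 1 passed at a threshold of 0.05 and with DESeq2, and 0 to 1 when mice were left out. The subset-by-E+P difference in stroma gave 1 with no low-count filter. The lineage-by-subset difference, with 1 as reported (*Tbx4*, whose luminal values hold 3 counts and allow no such test), gave 3 at a threshold of 0.05, 2 with library size alone and 2 with DESeq2, and 0 to 2 when mice were left out. The mouse as a replicate block gave 5 members in stroma and 1 in luminal cells, and it changed no call of a member.

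Counts over all genes moved by over 1.5 times in the E+P comparisons. In GFP+ stroma the 41 genes became 42 to 459 under other settings (459 with no low-count filter) and 16 to 46 with mice left out. In tdTomato+ stroma the 22 became 0 with only the 2 groups compared and 840 with no low-count filter, and 1 to 85 with mice left out. In GFP+ luminal cells the 985 became 560 to 2475 and 169 to 962, in tdTomato+ luminal cells the 2327 became 1899 to 4444 and 1140 to 2144, and the subset-by-E+P differences went from 8 to 4 to 506 and 1 to 13 in stroma and from 376 to 368 to 1089 and 33 to 314 in luminal cells. The cause was not tested. Depth limits *Tbx1* and *Tbx4*, and all members but *Tbx3* in luminal cells.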
